A study of Mus musculus with 9 samples.

Results

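A set of 10 genes of neutrophil granules, receptors and growth signals were followed in mouse retinas with laser-induced retinal vein occlusion (RVO): S100a8, S100a9, Csf3r, Cxcr2, Mmp8, Retnlg, Slfn4, Fpr1, Fpr2 and Csf3. They were chosen by name, with earlier results of these data known, and all 10 were found among the 48679 names of the count table. The 9 RNA samples were pools of 6 retinas from C57BL/6J mice aged 12 weeks, in 3 groups of 3 pools. In the RVO group, mice received the photosensitizer eosin Y and all large veins of one eye were closed by laser. The fellow eyes formed the control group, which shared the eosin Y and the laser scheme but was lasered in areas without large vessels. Both groups were collected 2 days after the laser treatment. The untreated group had no laser treatment. Replicates are therefore separate pools, and RVO and control pools come from paired eyes of the same mice, although the labels do not say which pools share mice. The paper reports that part of the closed veins re-opened over the following days, so closure may have been partial at collection. Each library holds whole retinas, so these data describe the mean of lesions, ischemic areas and unaffected tissue.

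Neutrophils are short-lived white blood cells that are made in the bone marrow and leave the blood at sites of injury. S100a8 and S100a9 encode the 2 subunits of calprotectin, an abundant protein of their cytoplasm. Csf3r is the receptor for the growth factor granulocyte colony-stimulating factor, encoded by Csf3, which drives their production and survival. Cxcr2 is the receptor for the chemokines Cxcl1, Cxcl2 and related ligands, and Fpr1 and Fpr2 are receptors for formylated peptides released by bacteria and damaged mitochondria. Mmp8 is the collagenase of their specific granules, Retnlg is a resistin-like secreted protein of mouse myeloid cells, and Slfn4 is a Schlafen family gene of myeloid cells.

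The 10 genes were scarce in retinas without laser treatment and more abundant after laser treatment. Against untreated retinas, 9 of them rose in RVO pools (27.4% of all genes tested) and 5 rose in control pools (27.2%). The remaining members had too few counts to be tested. Members near 0 in untreated retinas could be tested only through their counts in laser-treated pools. Their summed normalized count was 1.52, 0.612 and 1.05 CPM, the count scaled to the size of the library in units of 1000000 reads, in the 3 untreated pools. It was 31.2, 32.3 and 10.4 CPM in the control pools and 122, 54.6 and 131 CPM in the RVO pools. No untreated pool reached a control pool, and no control pool reached an RVO pool. S100a8 and S100a9 together made up 51.9% to 56.4% of the members' CPM in RVO pools and 37.9% to 48.4% in control pools. In bulk samples, fewer or more cells of a type and less or more RNA per cell cannot be told apart.

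Total counts were between 12377572 and 15245869 in untreated pools, between 18897218 and 23419497 in control pools and between 21022997 and 28993921 in RVO pools. The shallower untreated libraries limit fold changes against them: 3 counts, the limit that a count of 0 allows, correspond to between 0.21 and 0.268 CPM there. Lens crystallin and other lens transcripts summed to between 203 and 6616 CPM in RVO pools, with the highest value in RVO replicate 2, and to between 238 and 3326 CPM in control pools, with the highest value in control replicate 1, against between 3.51 and 28.4 CPM in untreated pools. The members called between RVO and control, and their fold changes, are therefore also given without these samples. RVO replicate 2 differed from the other RVO pools in further marker sums. It was highest in pigment epithelium (758 CPM), microglia (86.2 CPM) and retina markers (30240 CPM). It was lowest in monocyte and macrophage (241 CPM) and erythroid markers (50.3 CPM).

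S100a8 and S100a9 are neighbours on chromosome 3. S100a8 is at chr3:90668978-90670035 on the plus strand and S100a9 at chr3:90692632-90695721 on the minus strand (GRCm38, GENCODE), 22.6 kb apart. Csf3r is at chr4:126024550-126044440, Cxcr2 at chr1:74153989-74161246, Mmp8 at chr9:7558456-7568485, Retnlg at chr16:48872621-48874496, Slfn4 at chr11:83175186-83190216 and Csf3 at chr11:98701263-98703629, all on the plus strand. Fpr1 at chr17:17876471-17883940 on the minus strand and Fpr2 at chr17:17887824-17893952 on the plus strand are 3.88 kb apart.

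Promoters were available from RefSeq (GRCm38.p6) for 9 of the 10 members, all but Csf3, as 300 bases around the gene start. They were searched on both strands for motifs of factors of myeloid genes. The C/EBP motif TTNCNNAA was in 7 of the 9 promoters and in 40.7% of 32851 promoters. The PU.1 motif GAGGAAGT was in 2 of the 9, S100a8 and Mmp8, and in 3.2% of all promoters. The STAT motif TTCNNNGAA was in that of Fpr2 (8.3% of all promoters), the AP-1 motif TGANTCA in that of Slfn4 (7.81%), and the NF-kB motif GGNNTTTCC in none of the 9 (5.82%). The promoters of Csf3r and Cxcr2 held none of these letters in this window. A match is a description of the sequence and not a binding site. The 250 bases before the RefSeq start of the 2 calprotectin genes and of the collagenase Mmp8 are shown because S100a8 and S100a9 carried most of the members' CPM in RVO pools and because S100a8 and Mmp8 held both motifs. They are read 5′ to 3′ on the strand of the gene, with matches of the C/EBP or PU.1 motif in capitals. The stretches are chr3:90668821-90669070 on the plus strand for S100a8, chr3:90695722-90695971 on the minus strand for S100a9 and chr9:7558179-7558428 on the plus strand for Mmp8.
S100a8: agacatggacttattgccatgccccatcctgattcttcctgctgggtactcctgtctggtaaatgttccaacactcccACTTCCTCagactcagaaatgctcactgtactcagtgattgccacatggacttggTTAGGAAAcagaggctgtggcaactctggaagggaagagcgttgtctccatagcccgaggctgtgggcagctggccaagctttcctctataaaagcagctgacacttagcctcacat
S100a9: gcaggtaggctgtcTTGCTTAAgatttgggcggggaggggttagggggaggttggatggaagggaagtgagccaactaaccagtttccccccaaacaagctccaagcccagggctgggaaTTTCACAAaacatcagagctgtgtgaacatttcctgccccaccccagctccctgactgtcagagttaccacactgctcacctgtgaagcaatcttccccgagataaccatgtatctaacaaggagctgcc
Mmp8: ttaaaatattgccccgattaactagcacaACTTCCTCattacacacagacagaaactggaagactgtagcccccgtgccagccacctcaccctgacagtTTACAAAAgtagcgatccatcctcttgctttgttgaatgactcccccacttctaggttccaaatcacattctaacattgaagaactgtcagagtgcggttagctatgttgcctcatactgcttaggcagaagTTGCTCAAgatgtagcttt
S100a8 carried 1 match of each motif and S100a9 2 matches of C/EBP. Mmp8 carried 2 matches of C/EBP, the nearer between 19 and 12 bases before the start, and 1 of PU.1.

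The calprotectin genes had the highest counts of the members in RVO retinas. S100a8 had 919, 332 and 764 counts in the RVO pools, 137, 105 and 42 in the control pools and 0, 0 and 3 in the untreated pools. This is 29.6, 14.3 and 33.9 CPM in RVO and 6.25, 5.33 and 1.77 CPM in control. All RVO pools were above all control pools, and RVO replicate 2 and control replicate 3 were the lowest of their groups. S100a9 had 1207, 328 and 899 counts in RVO, 194, 136 and 57 in control and 1, 0 and 0 in untreated pools. Its CPM was 38.9, 14.1 and 39.9 in RVO and 8.85, 6.9 and 2.41 in control, in the same order of pools as S100a8. The single S100a9 count in untreated retinas leaves its ratio to them poorly bounded.

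Against untreated retinas, S100a8 rose in RVO with a log2 fold change of 8.26 ± 0.67 (SE, n = 3 and 3, adjusted p = 3.38e-05, edgeR's quasi-likelihood test with Benjamini-Hochberg adjustment). The ratio of its summed, depth-scaled counts was 337 (95% counting interval 115 to 1634). S100a9 rose by 9.89 ± 0.85 on the log2 scale (adjusted p = 4.23e-05, same edgeR test), with a count ratio of 1220 (219 to 48210). Both also rose in control retinas, S100a8 with a count ratio of 55.9 (18.9 to 272, edgeR adjusted p = 4.08e-05) and S100a9 with 228 (40.7 to 9041, edgeR adjusted p = 1.28e-05). These intervals cover counting error and not the spread between pools. Between RVO and control, S100a8 differed by 2.55 ± 0.48 on the log2 scale, a 5.86-fold difference (edgeR adjusted p = 0.0126), and S100a9 by 2.36 ± 0.53, a 5.15-fold difference (edgeR adjusted p = 0.0165). Neither passed the threshold of 0.01 used for calls.

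**Figure D1:**
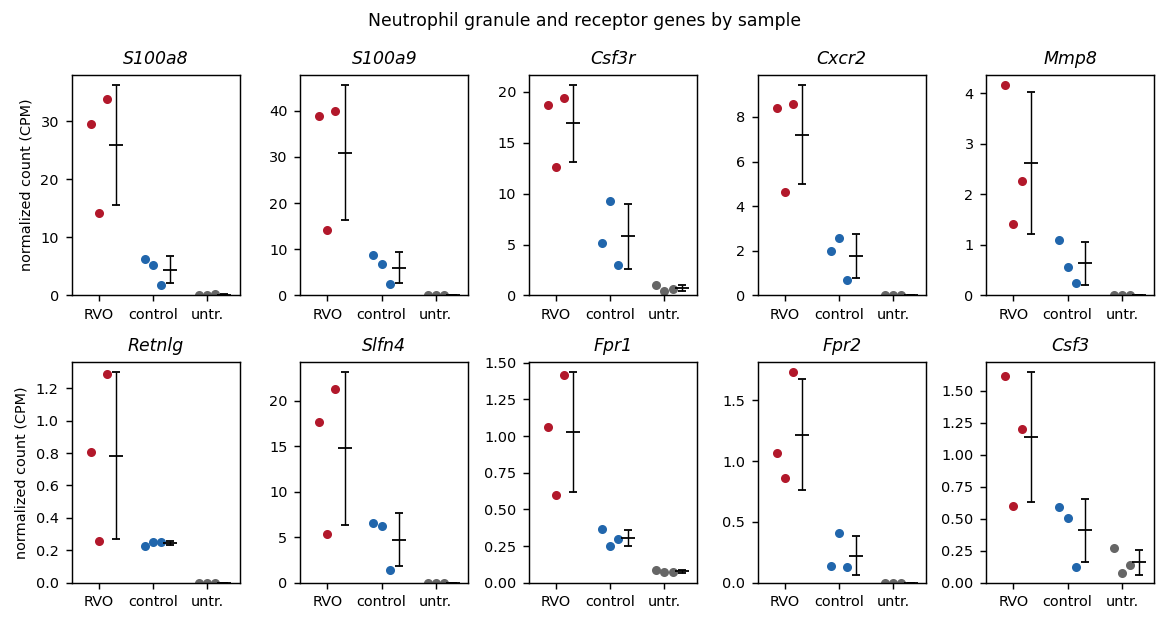
Normalized count (CPM, vertical axes from 0, scaled for each gene) of the 10 genes in the RVO, control and untreated (untr.) groups. Points are pools (replicates 1 to 3 from left to right) and bars the mean ± SD of 3 pools. RVO replicate 2, the middle red point, is the lowest of its group in all 10 panels. Untreated pools lie at or near 0 except for Csf3, where they overlap with control pools.

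Csf3r was the member with most counts in untreated retinas. It had 581, 293 and 438 counts in RVO, 112, 182 and 72 in control and 12, 6 and 9 in untreated pools. Its CPM was 16.9 ± 3.77 (SD, n = 3) in RVO, 5.8 ± 3.16 in control and 0.721 in untreated retinas, and the groups did not overlap. Csf3r rose 23.7-fold in RVO (log2 fold change 4.56 ± 0.31, edgeR adjusted p = 1.63e-05) and 7.99-fold in control retinas (3.00 ± 0.46, edgeR adjusted p = 9.94e-05). Between RVO and control, it differed by 1.55 ± 0.37 on the log2 scale (2.94-fold, edgeR adjusted p = 0.02). Its ligand gene Csf3 was scarce, with 50, 14 and 27 counts in RVO, 13, 10 and 3 in control and 3, 1 and 2 in untreated pools. The lowest RVO pool of Csf3, at 0.601 CPM, lay just above the highest control pool, at 0.593 CPM, and control and untreated pools overlapped. Csf3 rose in RVO against untreated retinas with a count ratio of 7.6 (3.36 to 21.3, edgeR adjusted p = 0.00336), which was no longer called without untreated replicate 2 or 3. It did not pass the filter on low counts for control against untreated retinas, where the count ratio was 2.56 (1.03 to 7.6). Between RVO and control it differed by 1.51 ± 0.54 on the log2 scale (edgeR adjusted p = 0.0642).

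Cxcr2 had no counts in any untreated pool. It had 261, 108 and 193 counts in RVO and 44, 51 and 16 in control pools, or 8.42, 4.64 and 8.56 CPM against 2.01, 2.59 and 0.676 CPM. RVO and control pools did not overlap. Against the floor of 3 counts in each untreated library, Cxcr2 was at least 26.9-fold higher in RVO (edgeR adjusted p = 0.000125) and at least 6.55-fold higher in control retinas (edgeR adjusted p = 0.000297). RVO differed from control by 2.05 ± 0.45 on the log2 scale (4.15-fold, edgeR adjusted p = 0.0156). Of the 50-base windows in its exons, 6.68% also occur in other genes, as do 10.7% of those of Csf3r.

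The formyl peptide receptors had low counts. Fpr1 had 33, 14 and 32 counts in RVO, 8, 5 and 7 in control and 1 in each untreated pool. Fpr2 had 33, 20 and 39 counts in RVO, 3, 8 and 3 in control and 0 in untreated pools. For both genes every RVO pool was above every control pool, by CPM of 0.601 against 0.365 for Fpr1 and 0.859 against 0.406 for Fpr2 at the nearest pools. Against untreated retinas, Fpr1 rose in RVO with a count ratio of 13.2 (4.36 to 65.4, edgeR adjusted p = 0.000943), and Fpr2 was at least 4.54-fold higher (edgeR adjusted p = 0.00102). Neither passed the filter for control against untreated retinas, where the count ratio of Fpr1 was 3.93 (1.17 to 20.7). Fpr2 differed between RVO and control by 2.46 ± 0.49 on the log2 scale (edgeR adjusted p = 0.0133) and Fpr1 by 1.73 ± 0.40 (edgeR adjusted p = 0.0175). Counts of Fpr2 are uncertain, because 31.5% of its 50-base windows also occur in Fpr1, Fpr3 or Gm5966 and its exons overlap those of Fpr3 by 48 bases. Fpr3 had 0 counts in all 9 samples.

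Mmp8 and Retnlg were detected in laser-treated retinas and at 0 in all untreated pools. Mmp8 had 129, 33 and 51 counts in RVO and 24, 11 and 6 in control pools, that is 2.61 ± 1.4 against 0.636 ± 0.426 CPM (SD, n = 3). Against the floor of the untreated libraries, Mmp8 was at least 9.74-fold higher in RVO (edgeR adjusted p = 0.00123) and at least 2.37-fold higher in control retinas, where it was not tested. RVO and control pools of Mmp8 did not overlap and differed by 2.06 ± 0.56 on the log2 scale (4.17-fold, edgeR adjusted p = 0.0276). Retnlg had 25, 6 and 29 counts in RVO and 5, 5 and 6 in control pools and passed the filter in no comparison. Against the same floor, Retnlg was at least 2.92-fold higher in RVO retinas, while control pools were near that floor. Its lowest RVO pool, at 0.258 CPM, was barely above the highest control pool, at 0.254 CPM, and the count ratio of RVO to control was 3.19 (1.81 to 5.93). In Mmp8, as in Csf3, RVO replicate 1 was the highest, unlike S100a8, S100a9, Csf3r, Cxcr2, Retnlg, Slfn4, Fpr1 and Fpr2, where it was RVO replicate 3.

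Slfn4 was the member in which RVO and control pools overlapped. It had 548, 124 and 479 counts in RVO, 144, 123 and 33 in control and 0 in all untreated pools. In CPM, RVO replicate 2 was at 5.33, below control replicates 1 and 2 at 6.57 and 6.24, while RVO replicates 1 and 3 were at 17.7 and 21.2. Slfn4 was at least 55-fold higher in RVO (edgeR adjusted p = 0.000685) and at least 17.6-fold higher in control (edgeR adjusted p = 0.000168) than in untreated retinas. RVO and control differed by 1.65 ± 0.64 on the log2 scale (3.14-fold, edgeR adjusted p = 0.0804). Of its 50-base windows, 11.3% also occur in Slfn1, Slfn2, Slfn3, 9830107B12Rik or Gm11427, so its counts are uncertain to that extent.

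Per kilobase of exon, S100a9 was the highest member in RVO retinas at 59.3 ± 28 CPM per kb (SD, n = 3), followed by S100a8 at 37.4 ± 14.9. The 2 ranges overlapped over pools, but S100a9 exceeded S100a8 in 3 of 3 RVO and 3 of 3 control pools. A wide gap followed: the lowest S100a8 pool, at 20.5 CPM per kb, was above the highest Csf3r pool, at 5.38. Slfn4 at 3.72, Cxcr2 at 2.36, Retnlg at 1.32, Mmp8 at 1.08, Fpr2 at 0.94, Csf3 at 0.805 and Fpr1 at 0.777 CPM per kb came after Csf3r at 4.69. From Csf3r downwards, each member overlapped with the next over the RVO pools.

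Over the 10 members, RVO and untreated retinas did not overlap in 10, where 37.8% of all genes tested were higher without overlap. Of the 10, 9 passed the filter on low counts and all 9 were called higher, against 27.4% of 16380 genes tested. Control and untreated retinas did not overlap in 9 members, all but Csf3 (36.8% of all genes tested), and 5 passed the filter and were called higher (27.2% of 16066 genes tested). Members near 0 in untreated retinas passed the filter through the laser-treated pools alone, so these shares describe the members and are no support for a difference. The 2 comparisons share the untreated samples. With genes at 0 set to their lower bound, the median log2 fold change was 4.56 over the 9 members tested in RVO. Over the 5 members tested in both comparisons it was 5.78 in RVO and 4.14 in control retinas, and over all genes tested it was 0.01 in both.

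RVO and control retinas were both laser-treated, with the laser aimed at the veins in RVO and between large vessels in control. Closure of the veins and laser treatment of the vessels themselves cannot be told apart in this comparison. The tested members all had log2 fold changes above 0, between 1.51 and 2.55 with a median of 2.05, against a median of 0.02 for all 16874 genes tested. Fpr1, Fpr2, Mmp8 and Csf3 were too low in control pools to pass the filter on low counts without the RVO pools. The shared direction therefore describes the members and is no support for a difference. In all, 9 of the 10 members were higher in RVO without overlap, all but Slfn4 (27.3% of all genes tested). At the adjusted p threshold of 0.01, edgeR called 0 of the 9 tested members (2.7% of all genes tested), while all 9 had an unadjusted p under 0.05. At an adjusted p under 0.05, 7 were called (17.5% of all genes tested), the exceptions being Slfn4 and Csf3. DESeq2 called 7 of 10 at 0.01 (11.1% of all genes tested). Without RVO replicate 2, edgeR called 10 of 10 (17.1% of all genes tested), and without any one of the other 5 samples it called 0. Leaving out both samples rich in lens transcripts, RVO replicate 2 and control replicate 1, also gave 10 of 10 (12.5% of all genes tested). RVO replicate 2 was the lowest RVO pool in all 10 members, and control replicate 1 the highest control pool in 6. Leaving them out thus raises the RVO mean of every member and lowers the control mean of those 6, and is no separate support for a difference. The log2 fold changes of the 9 tested members were then higher for 8 of them and lower for Fpr2, at 2.38. They reached 3.17 for S100a8, 3.09 for S100a9, 3.01 for Mmp8, 2.36 for Slfn4 and 2.19 for Csf3, and the lowest was 1.64 for Csf3r. Without RVO replicate 2 alone they lay between 1.72 for Csf3r and 2.83 for S100a8.

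**Figure D2:**
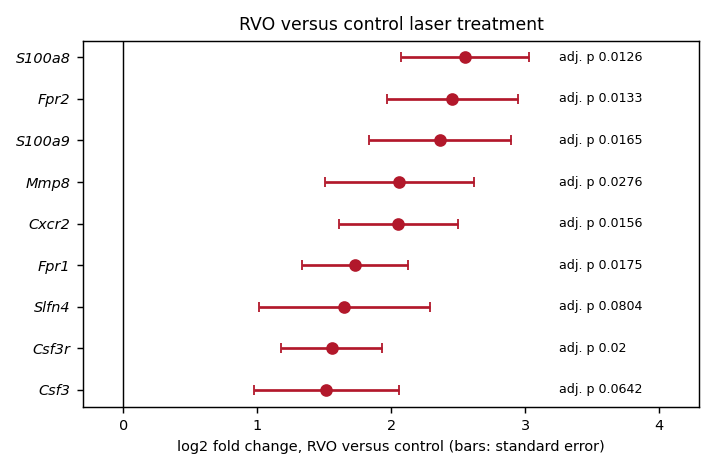
Log2 fold change (horizontal axis) of the 9 tested members between RVO and control retinas, with bars of 1 standard error and the edgeR adjusted p at the right. All estimates lie between 1.51 and 2.55, and all adjusted p are above 0.01.

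**Figure D3:**
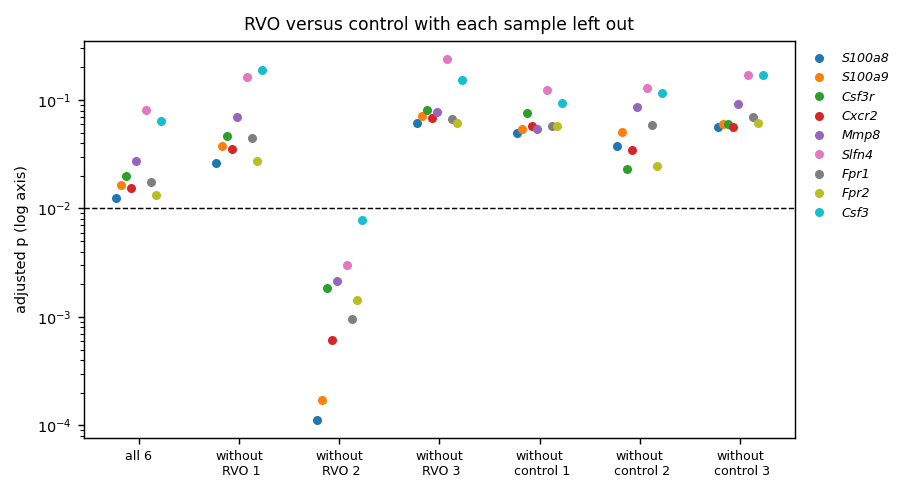
EdgeR adjusted p (log axis) of the members for RVO against control with all 6 samples and with each sample left out. Retnlg is not plotted, and the dashed line marks 0.01. All plotted members fall below the line without RVO replicate 2, and none does without any other sample.

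The pools ranked much the same over the members. RVO replicate 2 was the lowest RVO pool in 10 of 10 members, RVO replicate 3 the highest in 8 and RVO replicate 1 in 2. Control replicate 3 was the lowest control pool in 8 of 10. Since the members of a pool share its mice and library, this order is 1 property of each pool and not 10 observations. To set this order aside, each member was taken as a percentage of S100a9 in the same pool. S100a8 was at 76.1% to 101% of the S100a9 CPM in RVO and at 70.6% to 77.2% in control pools, ranges that overlapped. Csf3r was at 48.1% to 89.3% in RVO and at 57.7% to 134% in control pools, also with overlap. Slfn4 was at 37.8% to 53.3% in RVO and at 57.9% to 90.4% in control pools, and Csf3 at 3.00% to 4.27% against 5.26% to 7.35%. The shares of Slfn4 and Csf3 did not overlap between the groups and were lower in RVO. How often such shares separate over all genes was not counted. Between RVO and control, both had smaller log2 fold changes, 1.65 and 1.51, than S100a9 at 2.36. These differences in shares were not tested.

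**Figure D4:**
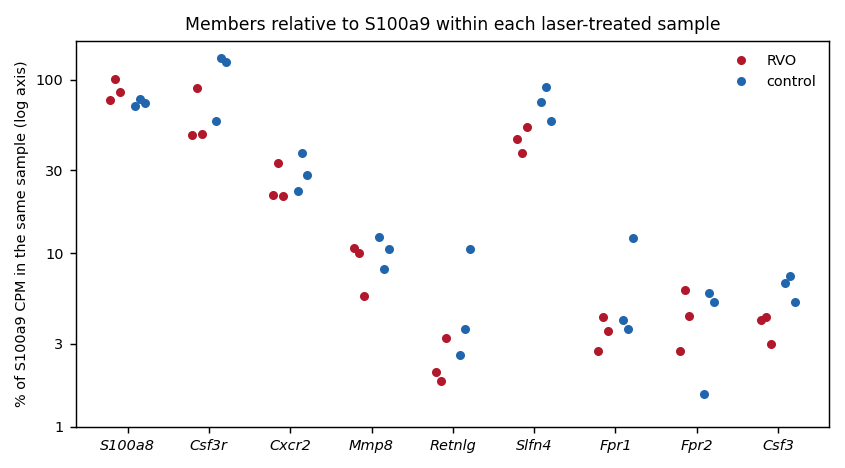
CPM of each other member as a percentage of the S100a9 CPM in the same pool (log axis), with 3 points for RVO and 3 for control. Points of the 2 groups overlap except for Slfn4 and Csf3, where all RVO points are below all control points. How often this occurs over all genes was not counted.

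The genes whose profile over the 9 samples was most like that of S100a9 were taken from 17001 genes by Pearson's r of log2(CPM + 0.5). This is a description, as all genes share the libraries and the split between laser-treated and untreated retinas. Il1rn, the interleukin 1 receptor antagonist, was first with r = 0.999, at 17.3 ± 7.53 CPM in RVO, 4.01 ± 1.67 in control and 0.132 in untreated retinas (SD, n = 3). It was followed by Lilr4b, Upp1, Prickle3, Ccl3, S100a8, Igfbp3, Ccl7, Ccl2 and Hcar2, with r between 0.993 and 0.996. Ccl2, Ccl3 and Ccl7 encode chemokines of monocytes and macrophages. Of the other members tested, Cxcr2 ranked 14, Slfn4 21, Csf3r 95, Mmp8 729, Fpr1 1873, Fpr2 2527 and Csf3 2553.

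Related genes were counted in lists, to be read against the shares of all genes tested that were called higher, which were 27.4% for RVO and 27.2% for control against untreated retinas and 2.7% for RVO against control. Listed genes at or near 0 in untreated retinas passed the filter through the laser-treated pools alone, as among the members. Of 15 other granule proteins, 6 were tested between RVO and untreated retinas and 5 rose, and 4 of 4 tested rose in control retinas, while edgeR called 0 of 6 between RVO and control at 0.01 (4 at an unadjusted p under 0.05, and 4 by DESeq2). Lcn2, the iron-binding lipocalin that is also made by reactive astrocytes and Mueller cells, was at 471 ± 168 CPM in RVO, 115 ± 39.6 in control and 4.08 in untreated retinas. Mmp9, a gelatinase of neutrophils and other cells, was at 41.7 ± 8.95, 25.8 ± 3.46 and 18.1 CPM. Of the primary granule proteins, the proteinase 3 gene Prtn3 had 27, 36 and 29 counts in RVO, 33, 36 and 31 in control and 3 in each untreated pool. It rose in RVO (log2 fold change 2.34, edgeR adjusted p = 0.00111) and in control retinas (2.66, edgeR adjusted p = 3.69e-05), and RVO and control pools overlapped. Other genes of these granules were near 0. The myeloperoxidase gene Mpo had 5, 2 and 0 counts in RVO and 1, 0 and 0 in control pools, the elastase gene Elane had a single count in all 9 samples and the cathepsin G gene Ctsg had 2, both in RVO replicate 1. Ly6g, the gene of the surface antigen used to define mouse neutrophils, had 5, 1 and 0 counts in RVO, 0, 0 and 1 in control and 0 in untreated pools. Camp had 9, 2 and 3 counts in RVO and 0, 0 and 5 in untreated pools, and Ngp had 4, 2 and 2 in RVO. Cd177, a surface protein of neutrophils, had 54, 8 and 31 counts in RVO, 1, 3 and 4 in control and 0 in untreated pools. The lactoferrin gene Ltf had 81, 32 and 67 counts in RVO, 19, 11 and 23 in control and 5, 1 and 7 in untreated pools, and it rose in RVO against untreated retinas (log2 fold change 2.75, edgeR adjusted p = 0.00195).

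Receptors and signalling genes of neutrophils that other myeloid cells share followed. Of 12 chemoattractant and survival receptors, 8 were tested between RVO and untreated retinas and 8 rose (27.4% of all genes tested). In control retinas, 6 of 7 tested rose (27.2%). Between RVO and control 1 of 8 was called (2.7% of all genes tested). It was the tumor necrosis factor receptor gene Tnfrsf1b, at 24.5 ± 7.22 against 7.53 ± 1.33 CPM (log2 fold change 1.70 ± 0.25, edgeR adjusted p = 0.00928). The neutrophil-associated leukotriene receptor Ltb4r1 was at 1.09 ± 0.424 against 0.211 ± 0.0526 CPM (edgeR adjusted p = 0.0125). Cxcr1, a chemokine receptor gene related to Cxcr2, had 3, 2 and 2 counts in RVO and 3, 1 and 0 in control pools. Of 12 genes listed together, adhesion, Fc and other myeloid receptors and Pglyrp1, 8 rose and 2 fell in RVO. In control retinas 10 were tested, and 6 rose and 2 fell. Over all genes tested, 24.6% fell in RVO and 25.2% in control retinas. Selplg and Fcgr3 were the 2 lower in both. Clec4d, a lectin receptor of myeloid cells, was at 7.43 ± 2.68 CPM in RVO, 1.37 ± 0.678 in control and 0 in untreated retinas. Of these 12, edgeR called 0 between RVO and control at 0.01 (10 at an unadjusted p under 0.05, and 7 by DESeq2). All 6 genes of the NADPH oxidase rose in RVO against untreated retinas (27.4% of all genes tested) and 5 rose in control (27.2%). Cyba, Ncf1 and Ncf4 were called between RVO and control, Ncf1 at 11.3 ± 1.94 against 4.71 ± 0.663 CPM (log2 fold change 1.27 ± 0.18, edgeR adjusted p = 0.00928).

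Ligands that recruit or sustain neutrophils rose with the receptors. Of 13 listed, 8 were tested between RVO and untreated retinas and 8 rose (27.4% of all genes tested). In control retinas, 5 of 5 tested rose (27.2%). Tested ligands at 0 in untreated pools passed the filter through the laser-treated pools alone. Cxcl2 was at 17.3 ± 11.4 CPM in RVO and 2.6 ± 2.24 in control, Cxcl3 at 9.15 ± 5.82 and 1.78 ± 1.23, and Cxcl1 at 7.04 ± 3.46 and 1.13 ± 0.957. These 3 ligands of Cxcr2 were at 0 in untreated pools, and Cxcl5 and Ppbp, other ligands of this receptor, had 1 and 2 counts over the 3 pools. Their differences between RVO and control were not called, with log2 fold changes of 2.75 ± 0.77 for Cxcl2, 2.38 ± 0.73 for Cxcl3 and 2.63 ± 0.61 for Cxcl1 (edgeR adjusted p = 0.0306, 0.0408 and 0.0182). Of the 10 ligands tested between RVO and control, 1 was called (2.7% of all genes tested). It was the complement gene C3, at 123 ± 43 against 20.2 ± 1.12 CPM (log2 fold change 2.6 ± 0.25, edgeR adjusted p = 0.00566). Csf2 had 18, 1 and 5 counts in RVO and 0 elsewhere, and Il17a had 0 counts in all 9 samples. Of 8 transcription regulators of granulocytes, 6 were tested and rose in RVO and 6 in control retinas against untreated. Cebpb and Cebpd were called between RVO and control, Cebpd at 228 ± 31.1 against 90.9 ± 22.4 CPM (log2 fold change 1.32 ± 0.18, edgeR adjusted p = 0.0086). Cebpe, the regulator of late granulocyte development, was at 0.2 ± 0.136 CPM in RVO and 0 in untreated retinas. Socs3, a feedback inhibitor induced by granulocyte colony-stimulating factor and other cytokines, was at 170 ± 25.5, 71.6 ± 20.4 and 2.94 CPM.

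Markers of some other cell types moved along with the members. The 12 neutrophil markers, of which 6 are members, summed to between 48.9 and 109 CPM in RVO, between 9.55 and 25.5 in control and between 0.612 and 1.68 in untreated pools. Of them, Elane was at 0 in RVO pools, and Ly6g, Mpo, Elane, Cxcr2, Mmp8 and Retnlg were at 0 in untreated pools. Among the neutrophil markers that are not members, Ltf was the highest in RVO retinas, with a mean of 2.32 CPM. The neutrophil sum thus mostly restates the members and is no separate support. The 12 monocyte and macrophage markers summed to between 241 and 297 CPM in RVO, between 126 and 155 in control and between 45.1 and 50.3 in untreated pools. Of these, 9 rose in RVO (27.4% of all genes tested) and 7 in control (27.2%) against untreated retinas. F13a1, Cd68, Arg1 and Lyz2 were called between RVO and control (2.7% of all genes tested). Lyz2 was at 56.4 ± 6.33 CPM in RVO, 24.5 ± 5.25 in control and 3.04 in untreated retinas. Ly6c2 and Chil3, which mark blood monocytes, were at 0 in untreated pools. Platelet markers summed to between 21.8 and 25.7 CPM in RVO, between 18.7 and 21.5 in control and between 8.26 and 10.2 in untreated pools, and the platelet genes did not move together. Between RVO and control, Pf4 was called higher, at 5.89 ± 1.35 against 1.43 ± 0.413 CPM, while Gp1bb was at 4.06 ± 1.42 against 8.53 ± 1.04 CPM (log2 fold change -1.08, edgeR adjusted p = 0.02) and Gp1ba at 2.57 against 2.54 CPM. The median log2 fold change of the 5 tested platelet genes was 0.27. Erythroid markers summed to between 50.3 and 199 CPM in RVO, between 28.9 and 31.4 in control and between 14.4 and 14.8 in untreated pools, with 2 of 5 tested higher in RVO than in untreated retinas.

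Microglia markers went the other way, with 6 of 10 lower in RVO (24.6% of all genes tested) and 7 of 10 lower in control (25.2%) than in untreated retinas and sums of 53.3 to 86.2, 85.8 to 96.2 and 141 to 219 CPM. P2ry12 was at 0.819 ± 0.408 CPM in RVO, 2.45 ± 0.0954 in control and 19.8 in untreated retinas. Of 13 markers of retinal neurons and Mueller cells, 13 were lower in RVO and 10 in control than in untreated retinas, with sums of 26730 to 30240, 31950 to 40940 and 47440 to 50070 CPM. The labelled tissue was thus met by its markers in every sample. The 9 lymphocyte markers summed to between 1.72 and 2.13 CPM in RVO and to between 1.1 and 1.73 CPM in control pools, and the 7 markers of mast cells, eosinophils and basophils to between 1.16 and 1.86 and between 0.422 and 2.18 CPM. Pigment epithelium markers summed to between 339 and 758 CPM in RVO and between 366 and 425 CPM in control pools. The part of any of these cell types in the values of the members was not tested.

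**Figure D5:**
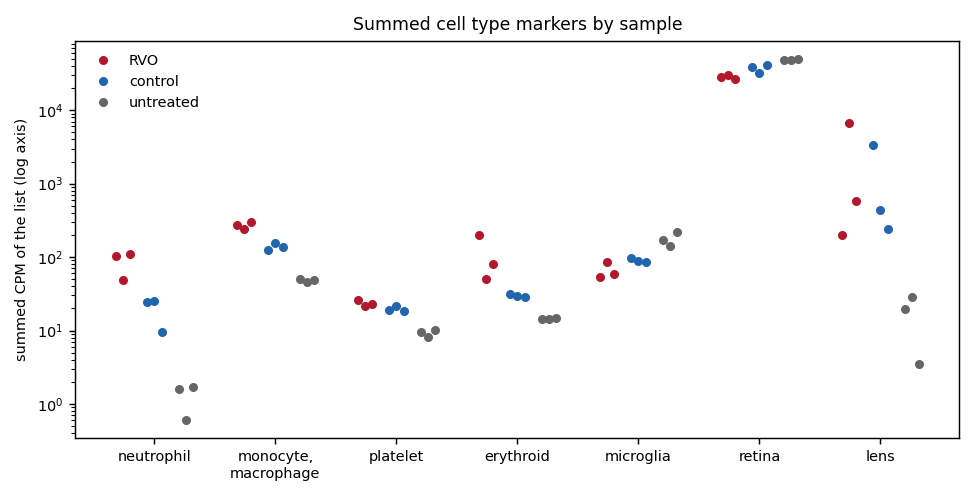
Summed CPM (log axis) of 7 lists of cell type markers in each pool of the RVO, control and untreated groups. Neutrophil, monocyte and macrophage markers separate the 3 groups, but the neutrophil sum consists mostly of members and is no separate support. Microglia and retina markers are highest in untreated pools, and lens markers vary between 203 and 6616 CPM among the RVO pools.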

How the data were processed

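Retinal poly-A RNA was sequenced as single 50-base reads from strand-marked libraries. The authors mapped reads with STAR 2.5.2b (GENCODE vM11, GRCm38), counted reads per gene with featureCounts (Subread 1.5.1) and deposited the counts without normalization. The strand setting and the handling of multimapping reads are not given in the sources used here. The 92 spike-in names were at 0 counts in all samples, and 0 columns were left unused. Coordinates, exon lengths and shared 50-base windows were taken from GENCODE vM21 on the same build.

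The deposited counts were tested with edgeR 4.0.16 (R 4.3.3). Within 2 groups at a time, genes passing filterByExpr were scaled by TMM and tested by the quasi-likelihood test with Benjamini-Hochberg adjustment over all genes tested, and were called under 0.01. CPM values use TMM factors over the 9 samples. A SE is the absolute log2 fold change divided by the square root of F. For groups at 0, a fold change is a lower bound against 3 counts per library. Groups with few counts have ratios with exact 95% intervals, which cover counting error only. Replicate pools differed by more than sampling noise (chi-square per degree of freedom 3.15 to 54.1), and p-values measure the spread between pools. RVO and control pools come from paired eyes but were tested as unpaired, because the labels do not say which pools share mice. DESeq2 1.42.0, other scalings, filters and fits, a replicate block, thinned libraries and left-out samples were alternatives. The fit was tested on simulated data. Deviations from the group means of same-numbered RVO and control pools correlated at -0.124, -0.138 and 0.0653. Because deviations of 3 pools from their own mean depend on each other, this cannot tell whether same-numbered pools share mice.

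The members and lists were chosen with earlier results of these data known. All members are named. Of the other lists, genes called between RVO and control, abundant genes and those at or near 0 are named.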

Additional observations from a re-analysis of the deposited data

How the results depend on the processing

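Between RVO and control, the 0 of 9 members called became 7 with no filter (5.28% of all genes tested were then higher), 7 with DESeq2's Wald test, 6 with all 9 samples in 1 fit (10.7%), 7 at an adjusted p under 0.05 and 10 without the 2 samples rich in lens transcripts, an alternative chosen after seeing the data. Leaving out 1 sample gave between 0 and 10, with 10 without RVO replicate 2 and 0 otherwise. Between control and untreated retinas, the 5 called became 8 with no filter (17.8% of all genes tested) and were between 5 and 6 with 1 sample left out. Between RVO and untreated retinas, 9 became between 7 and 10 with 1 sample left out, and 6 of 6 tested were called with thinned libraries or a CPM of at least 1 in 3 samples. The filters and thinning also changed how many members were tested. The cause of the changes in the calls was not tested. The log2 fold change of Csf3 between RVO and untreated retinas fell from 2.83 to 2.49 without untreated replicate 2 (edgeR adjusted p = 0.0192) and 2.74 without untreated replicate 3 (edgeR adjusted p = 0.0201). Of the members' log2 fold changes under single alternatives, 114 of 116, 69 of 69 and 92 of 130 stayed on their side of the threshold for RVO against untreated, control against untreated and RVO against control. In the last comparison 38 crossed to called, and no direction reversed. Counts of all genes called moved more: 563 between RVO and control became 4043 with DESeq2 and 6257 without RVO replicate 2. With the replicate number as a block the members called were 9, 5 and 0 in the 3 comparisons, and the 563 genes became 0. Depth limits Retnlg, Fpr1, Fpr2, Csf3 and Mmp8, whose counts in control or untreated retinas were near 0.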

Other observations

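Close relatives of the members were counted in the same samples. Of the Schlafen genes, Slfn1 was at 6.22 ± 2.43 CPM in RVO, 1.48 ± 0.514 in control and 0.0255 in untreated retinas (SD, n = 3), and Slfn2 at 7.94 ± 2.12, 2.89 ± 1.19 and 0.84 CPM. Slfn5 was at 3.97 ± 0.453 and 3.35 ± 0.375 CPM in RVO and control, which overlapped. The resistin-like gene Retnlb and the formyl peptide receptor genes Fpr3, Fpr-rs3, Fpr-rs4, Fpr-rs6 and Fpr-rs7 had 0 counts in all 9 samples. Of the S100 genes, which many cell types express, S100a6 rose in both laser-treated groups, at 106 ± 19.4 CPM in RVO, 85.6 ± 15.3 in control and 5.04 in untreated retinas (edgeR adjusted p = 2.27e-06 and 5.75e-09), and its RVO and control pools overlapped. S100a10 was called higher in RVO than in control retinas, at 126 ± 14.4 against 58.9 ± 13.1 CPM (edgeR adjusted p = 0.00965), as were the metalloproteinases Mmp3 at 11.4 ± 2.73 against 2.29 ± 0.409 CPM and Mmp12 at 6.44 ± 0.49 against 1.86 ± 0.342 CPM (edgeR adjusted p = 0.006 for both).

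Of 5 listed receptors of calprotectin, Tlr4, Cd14 and Bsg rose in RVO against untreated retinas (27.4% of all genes tested). Ager and Cd14 rose in control retinas (27.2%). Between RVO and control, edgeR called 0 of 5 at 0.01 (4 at an unadjusted p under 0.05, and 2 by DESeq2), against 2.7% of all genes tested. Cd14 was at 10.2 ± 3.08 CPM in RVO, 4.43 ± 0.731 in control and 1.97 in untreated retinas.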
